A study of Mus musculus with 6 samples.

Results

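Interferon-stimulated genes were examined in mouse group 2 innate lymphoid cells (ILC2s), lymphocytes of tissues that lack antigen receptors and secrete cytokines such as Il5 and Il13. The 36 genes are a fixed list of symbols, matched by Entrez ID to the deposited counts. All 36 had a row among the 27179 IDs of the table, and 35 passed the low-count filter that left 12967 genes. The cells came from 2 sorting gates, negative and positive for Chat, the gene of choline acetyltransferase, which makes acetylcholine. Each gate has 3 libraries, numbered 1 to 3. The sample titles hold nothing but the gate and the number. Genotype, strain, age, tissue, any stimulus and the means of detecting Chat are all not given in the sources used here. Whether libraries of a gate represent different animals is likewise not said, and p-values below then reflect only the spread among these samples, which may be technical.

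Libraries held 37154269 to 50361306 counts. Levels are given as CPM, counts scaled to a common library size, and ± marks the SD over the 3 libraries of a gate. Chat averaged 20.2 ± 5.48 CPM below the gate and 187 ± 17.9 CPM within it, a log2 change of 3.21 (SE 0.21, edgeR adjusted p = 0.0174), which did not pass once the replicate number was a block (edgeR adjusted p = 0.0961). All 10 listed ILC2 genes, among them Gata3, Il7r and Il5, were expressed, with a summed level of 17555 to 20368 CPM over the Chat negative and 19166 to 25867 CPM over the Chat positive libraries. Libraries with the same number resembled each other: their deviations from the gate mean correlated across genes at 0.290, 0.674 and 0.430 for numbers 1, 2 and 3. Number 1 was not set apart from number 3, since Chat negative 1 correlated with Chat positive 3 at 0.301, and Chat negative 3 with Chat positive 1 at 0.197. Both libraries numbered 2 deviated in the opposite direction to the other 4, with negative correlations to each library of the other gate that has another number. Deviations cancel out within a gate, so these negative values follow once number 2 stands apart alike in both gates and are no separate observation.

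Interferons are secreted warning signals of infection. Type I interferons bind the receptor chains Ifnar1 and Ifnar2, which activate the kinases Jak1 and Tyk2. Signals from these kinases lead to a complex with Stat2 and Irf9 that binds the interferon-stimulated response element, while signals of interferon gamma act through the gamma-activated site. The induced genes encode sensors of foreign RNA and DNA, enzymes and membrane proteins that block viral growth, and factors such as Irf7 and Usp18 that amplify or end the response. Many are also transcribed at a low tonic level in uninfected cells.

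Promoter sequences show what the members share beyond their names. The RefSeq table of GRCm38.p6, the assembly behind mm10, held promoters for 28 of the 36 genes, each from 250 bases before to 50 after a transcription start. The core of the response element, searched as GAAA, any 2 bases and GAAA again on both strands with overlaps allowed, occurred in 16 of those 28 genes, against 3.99% of all 27025 genes with a promoter in the table. The gamma-activated site, searched as TTCNNNGAA, which reads the same on both strands, occurred in 8 of 28, against 9.55%. A match is a description of letters and not a shown binding site. The stretches below, read 5′ to 3′ on the gene's strand and ending before the start site, hold matches in capitals. Isg15, Ifit1, Rsad2, Oas3 and Oas1a are shown because their levels varied widely between libraries, Stat2 and Gbp2 because they varied less, Gbp3 because number 2 was not its lowest, and Ifitm2 because it was the member called between the gates in a paired fit.
Isg15: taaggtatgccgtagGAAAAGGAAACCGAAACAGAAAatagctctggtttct
Ifit1: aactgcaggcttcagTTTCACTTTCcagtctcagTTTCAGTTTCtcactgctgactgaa
Rsad2: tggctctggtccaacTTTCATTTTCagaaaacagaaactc
Oas3: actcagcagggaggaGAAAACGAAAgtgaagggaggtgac
Oas1a: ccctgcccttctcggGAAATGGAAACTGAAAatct
Stat2: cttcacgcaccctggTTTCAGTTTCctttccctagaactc
Gbp2: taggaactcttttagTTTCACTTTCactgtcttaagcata
Gbp3: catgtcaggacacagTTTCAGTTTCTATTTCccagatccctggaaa
Ifitm2: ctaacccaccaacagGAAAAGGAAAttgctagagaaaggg

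These stretches lie, in GRCm38.p6, at chr4:156200860-156200911 (minus strand), chr19:34640770-34640828 (plus), chr12:26456548-26456587 (minus), chr5:120777710-120777749 (minus), chr5:120907526-120907560 (minus), chr10:128270261-128270300 (plus), chr3:142620589-142620628 (plus), chr3:142559984-142560029 (plus) and chr7:140955983-140956022 (minus). Isg15 held 3 overlapping matches, from -78 to -57 relative to the start, and Ifit1 held 2 between -104 and -76. Among tested members with a promoter in the table, those with a match did not vary more than those without. The SD of log2 CPM over the 6 libraries had a median of 0.50 in the 15 tested members with a match and 0.63 in the 12 whose promoter had none, Irf7, Xaf1 and Cmpk2 among them. It was 0.96 in the 8 tested members with no promoter in the table, Rtp4 among them, whose matches are unknown.

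The members varied together over the 6 libraries, and their order followed the replicate number and not the gate. Both libraries numbered 2, one from each gate, were the lowest of the 6 for 28 of 35 tested members, against 23.4% of all genes tested. Both libraries numbered 3 were the highest for 21 of 35, against 11.7%. Number 1 held both lowest libraries for 1 member and both highest for 2 (all genes 5.17% and 5.24%), number 2 both highest for 1 (26.3%) and number 3 both lowest for 0 (12%). The order 3, then 1, then 2 held for the means of 26 members, or 74.3%, and for 26.0% of all genes. In libraries of bulk sorted cells, fewer cells that carry a transcript and less of it per cell cannot be told apart.

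Relative to each gene's mean, the median member stood at -0.61 and -0.70 log2 units in Chat negative 2 and Chat positive 2. It stood at 0.31 and 0.26 in the libraries numbered 1, and at 0.60 and 0.37 in those numbered 3. The median over all genes tested lay between -0.0068 and 0.018 in every library. The number was tested as a term with 2 degrees of freedom beside the gate in edgeR's quasi-likelihood test, a test added after the data were seen. At a 5% threshold on p-values adjusted over all genes, 28 of 35 tested members differed between the numbers, against 32.5% of all genes. This fit has 2 residual degrees of freedom, and on simulated data the share of false calls among its calls exceeded the threshold. For all 28 of them the mean of number 2 was the lowest, a direction seen together with a call in 14.8% of all genes. Without 1 library, 23 to 31 members passed, beside 10.4% of all genes without Chat negative 2 and 39.1% without Chat positive 3. What the numbers stand for, an animal or a day of sorting for example, the labels do not say.

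**Figure D1:**
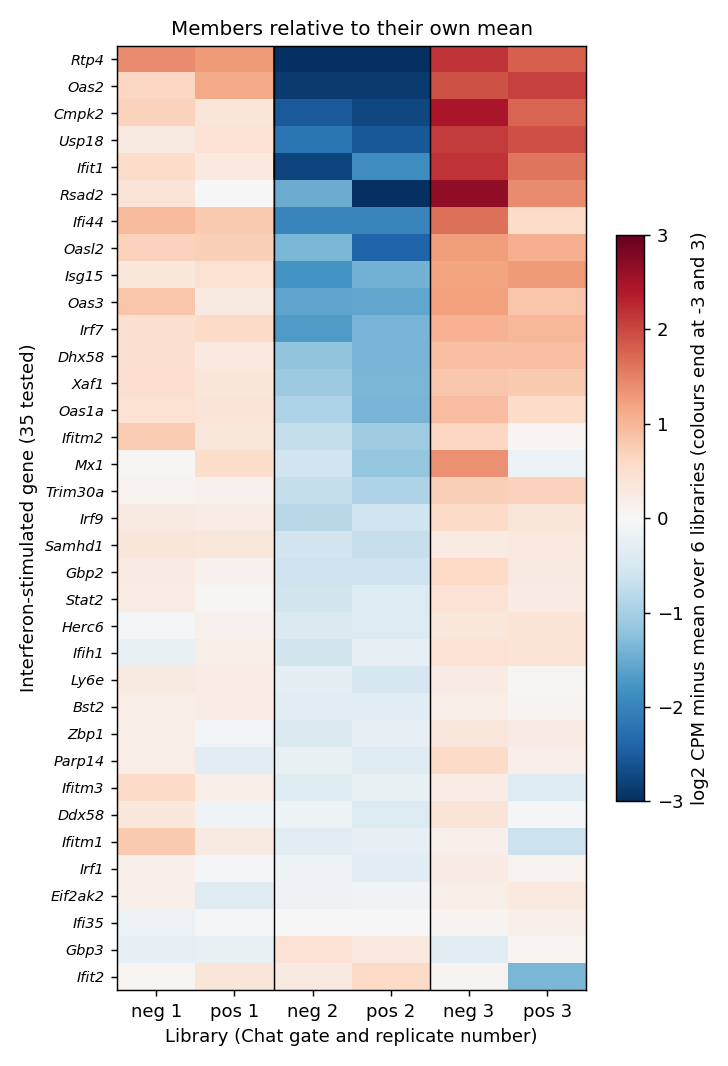
Log2 CPM of the 35 tested members minus each gene's mean over the 6 libraries (colour), with libraries in columns by replicate number and genes ordered by how far number 2 lay from the others. The columns of Chat negative 2 and Chat positive 2 are blue for nearly all genes, and Gbp3, Ifit2 and Ifi35 at the bottom are the members whose number 2 mean was not the lowest.

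Rtp4, a receptor-transporting protein with antiviral activity (Entrez 67775, chromosome 16, 23520219 to 23614222 in GRCm38.p6, as are the other gene positions), varied most. Its level was 28.1, 1.01 and 47.6 CPM in Chat negative libraries 1, 2 and 3 and 25.6, 0.990 and 36.3 CPM in Chat positive libraries 1, 2 and 3. Both libraries numbered 2 were thus near 1 CPM, while the other 4 did not overlap with them. The log2 difference of number 2 from the mean of the other numbers was -5.05 (SE 0.16), and the number term had an edgeR adjusted p of 2.39e-06. Among the 8376 genes with a mean of at least 10 CPM, Rtp4 had the largest SD over libraries of all. Reads of Rtp4 could be shared with Gm45338, an annotated transcript on the same strand that holds 13.6% of the 50-base words of its longest transcript.

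Among the transcription factors, Irf7, the regulator that amplifies interferon production (Entrez 54123, chromosome 7, 141263183 to 141266499), had levels of 53.2, 11.8 and 78.0 CPM in Chat negative libraries 1, 2 and 3 and at 57.0, 14.5 and 75.7 CPM in Chat positive libraries 1, 2 and 3. Its number 2 libraries were the lowest and its number 3 libraries the highest in both gates, with a log2 difference of number 2 from the others of -2.31 (SE 0.11) and an edgeR adjusted p of 5.50e-06 for the number. Irf9 and Stat2, of the type I complex, varied less. Irf9 stood at 41.8 and 49.3 CPM in the libraries numbered 2 and from 87.7 to 110.4 in the other 4, with a difference of -1.07 (SE 0.096). Stat2 stood at 66.3 and 73.3 CPM in the libraries numbered 2 and from 99.9 to 129.8 in the other 4, with a difference of -0.70 (SE 0.084). Irf1, which is induced by interferon gamma and controls antigen presentation genes, stood at 208, 168 and 222 CPM in Chat negative libraries 1, 2 and 3 and 182, 147 and 199 CPM in Chat positive libraries 1, 2 and 3, and its difference of -0.36 (SE 0.057) was the smallest of the 4 factors. All 4 differed between the numbers in edgeR, with adjusted p between 5.50e-06 and 0.00268, beside 32.5% of all genes that differed.

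Of the genes around the ubiquitin-like modifier Isg15, all 4 differed between the numbers, beside 32.5% of all genes. Isg15, a small protein that is conjugated to other proteins during the response (Entrez 100038882, chromosome 4, 156199424 to 156200818), stood at 24.2, 5.602 and 44.7 CPM in Chat negative libraries 1, 2 and 3 and 26.6, 7.26 and 47.1 CPM in Chat positive libraries 1, 2 and 3. Both libraries numbered 2 were several-fold below the other 4, with a log2 difference of -2.41 (SE 0.12) and an edgeR adjusted p of 6.65e-06. Usp18, the protease that removes Isg15 and dampens the type I receptor, stood at 0.507 and 0.388 CPM in the libraries numbered 2 and from 3.00 to 10.8 in the other 4. Herc6, the main ligase for Isg15 in mice, lay closer together, at 26.1 and 26.7 CPM in the libraries numbered 2 and from 34.4 to 46.7 in the other 4, and 23.8% of its 50-base words also occur in Gm45193. The TRIM protein Trim30a, a restrainer of Toll-like receptor signals, stood at 24.6 and 21.5 CPM in the libraries numbered 2 and from 44.0 to 67.2 in the other 4.

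**Figure D2:**
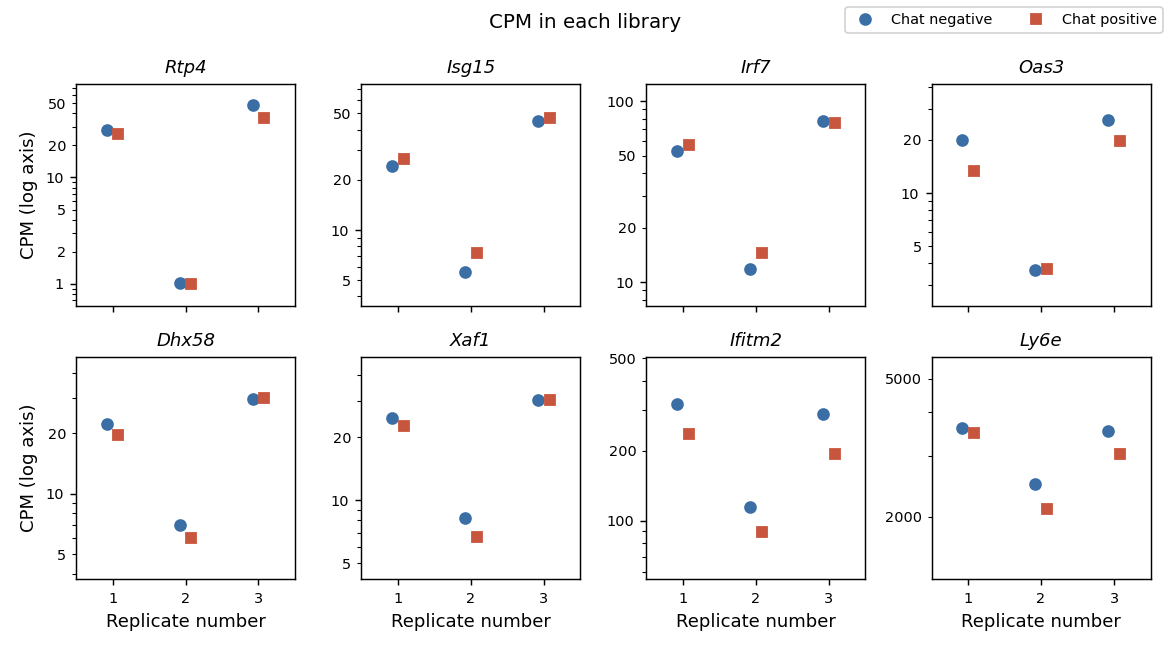
CPM (log axis, scaled per gene) of 8 members in each of the 6 libraries, by replicate number, with circles for Chat negative and squares for Chat positive. For each gene both gates are low at number 2, Rtp4 near 1 CPM. The log2 difference between the gates is largest for Oas3 at number 1 (-0.58) and Ifitm2 at number 3 (-0.57).

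Of the 9 sensors of foreign RNA and DNA, 8 differed between the numbers, each with the lowest mean at number 2. A call with that direction was seen in 14.8% of all genes. Dhx58, the regulator LGP2 of the RIG-I-like receptors, stood at 22.2, 6.94 and 29.7 CPM in Chat negative libraries 1, 2 and 3 and 19.5, 5.98 and 29.9 CPM in Chat positive libraries 1, 2 and 3, with a difference of -1.95 (SE 0.13). Oas3, an oligoadenylate synthetase that activates RNase L, stood at 19.9, 3.67 and 26.0 CPM in Chat negative libraries 1, 2 and 3 and 13.3, 3.71 and 19.6 CPM in Chat positive libraries 1, 2 and 3, with a difference of -2.37 (SE 0.17) and an edgeR adjusted p of 3.56e-05. In both genes the libraries numbered 2 lay below all others. The RNA sensors themselves, Ddx58 (RIG-I) and Ifih1 (MDA5), varied less. Ddx58 stood at 170.3, 122 and 179 CPM in Chat negative libraries 1, 2 and 3 and 127, 103 and 131 CPM in Chat positive libraries 1, 2 and 3, and Ifih1 at 6.09 and 7.46 CPM in the libraries numbered 2 and from 7.63 to 12.0 in the other 4.

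Zbp1, a sensor of left-handed nucleic acids that can trigger necroptosis, stood at 62.3 and 70.1 CPM in the libraries numbered 2 and from 79.3 to 105 in the other 4, a difference of -0.51 (SE 0.091). Eif2ak2, the kinase PKR that halts translation on double-stranded RNA, was the sensor that did not pass, at 32.0 and 32.8 CPM in the libraries numbered 2 and from 27.3 to 43.6 in the other 4 (edgeR adjusted p = 0.176). Oas1a stood at 4.22 and 3.05 CPM in the libraries numbered 2 and from 10.5 to 15.4 in the other 4, but 57.6% of the 50-base words of its transcript also occur in Oas1g or Oas1b, so its reads may be split or misplaced. Oas2 had 20, 0 and 53 counts in Chat negative libraries 1, 2 and 3 and 26, 0 and 55 in Chat positive libraries 1, 2 and 3. A count of 0 in both libraries numbered 2 allows up to 3 counts, or 0.0696 and 0.0596 CPM, for counting error alone. Oasl2 had 43, 9 and 65 counts in Chat negative libraries 1, 2 and 3 and 38, 4 and 54 in Chat positive libraries 1, 2 and 3.

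The nucleotide enzymes all differed between the numbers, beside 32.5% of all genes. Cmpk2, a mitochondrial nucleotide kinase beside Rsad2 on chromosome 12, stood at 0.392 and 0.330 CPM in the libraries numbered 2 and from 3.16 to 13.6 in the other 4, with a difference of -4.09 (SE 0.27). Rsad2 (viperin), which makes a chain-terminating nucleotide, stood at 0.415 and 0.117 CPM in the libraries numbered 2 and from 1.27 to 8.15 in the other 4, with a difference of -3.53 (SE 0.41). Samhd1, which depletes the nucleotides that viruses need, was more abundant and varied less, at 129.9, 68.7 and 120.1 CPM in Chat negative libraries 1, 2 and 3 and 127, 62.0 and 124 CPM in Chat positive libraries 1, 2 and 3, a difference of -0.94 (SE 0.070). Parp14, an ADP-ribosyltransferase, stood at 78.0, 58.0 and 100.4 CPM in Chat negative libraries 1, 2 and 3 and 54.6, 51.8 and 74.9 CPM in Chat positive libraries 1, 2 and 3, and Chat positive 1 lay below Chat negative 2, so its numbers overlapped.

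Per kilobase of transcript, Ly6e, a membrane protein that limits coronavirus entry (Entrez 17069, chromosome 15, 74955025 to 74959904), was the most abundant member, at a mean of 1335 CPM per kb. Ifitm2, Ifitm1 and Ifitm3, which hinder fusion of viruses with cell membranes, followed at 316, 189 and 122.9 CPM per kb. Ly6e stood at 3615, 2493 and 3534 CPM in Chat negative libraries 1, 2 and 3 and 3485, 2108 and 3039 CPM in Chat positive libraries 1, 2 and 3, with number 2 lowest and a difference of -0.57 (SE 0.056). Bst2 (tetherin), which holds budding virions at the cell surface, stood at 54.9 and 54.6 CPM in the libraries numbered 2 and from 73.3 to 80.7 in the other 4.

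The neighbouring genes Ifitm2, Ifitm1 and Ifitm3 on chromosome 7 shared one order of number means, 1, then 3, then 2, but not their lowest library. Ifitm2 (Entrez 80876, chromosome 7, 140954837 to 140959686) stood at 316, 115 and 289 CPM in Chat negative libraries 1, 2 and 3 and 237, 89.5 and 194 CPM in Chat positive libraries 1, 2 and 3, with both number 2 libraries the lowest and an edgeR adjusted p of 8.46e-06 for the number. Ifitm1 stood at 274, 126 and 175 CPM in Chat negative libraries 1, 2 and 3 and 191, 134 and 101 CPM in Chat positive libraries 1, 2 and 3, and Chat positive 3 was its lowest library. Ifitm3 stood at 119.5, 62.6 and 94.1 CPM in Chat negative libraries 1, 2 and 3 and 92.8, 69.1 and 61.9 CPM in Chat positive libraries 1, 2 and 3, again with Chat positive 3 the lowest. Ifitm1 and Ifitm3 did not pass for the number (edgeR adjusted p = 0.174 and 0.0932). Of the 50-base words of the Ifitm2 transcript, 48.5% also occur in transcripts of other genes, mostly Gm45717, whose exons overlap it on the same strand, and less often in pseudogenes, so its level is uncertain.

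The IFIT proteins bind viral RNA that lacks the cap marks of the host. Ifit1 stood at 0.530 and 1.03 CPM in the libraries numbered 2 and from 4.76 to 17.5 in the other 4, with a difference of -3.44 (SE 0.33) and an edgeR adjusted p of 2.01e-04. Ifit2 was not low at number 2, with 86, 102 and 89 counts in Chat negative libraries 1, 2 and 3 and 93, 149 and 29 in Chat positive libraries 1, 2 and 3, and its number term did not pass (edgeR adjusted p = 0.294). Ifit3, with 0 to 13 counts per library, was the member not tested. It shares 51.2% of its 50-base words with Ifit3b, so that reads from either could be lost.

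Among the large GTPases, Gbp2 and Gbp3 attack the membranes of intracellular pathogens, and both genes lie on chromosome 3. They differed in where number 2 stood, lowest for Gbp2 and highest for Gbp3. Both promoters hold the response element letters shown above. Gbp2 stood at 16.1 and 16.0 CPM in the libraries numbered 2 and from 26.8 to 37.3 in the other 4, with a difference of -0.93 (SE 0.11) and an edgeR adjusted p of 6.92e-04. Gbp3 stood at 9.41 and 8.56 CPM in the libraries numbered 2 and from 5.46 to 7.30 in the other 4, with a difference of 0.55 (SE 0.18), which did not pass (edgeR adjusted p = 0.0889). Mx1, which many laboratory strains carry in a broken form, had 4 to 29 counts and did not pass (edgeR adjusted p = 0.250). Of the others, Xaf1, a binding partner of the apoptosis inhibitor XIAP, stood at 24.6, 8.18 and 30.4 CPM in Chat negative libraries 1, 2 and 3 and 22.6, 6.68 and 30.3 CPM in Chat positive libraries 1, 2 and 3, with number 2 lowest and a difference of -1.85 (SE 0.13). Ifi44 had 13, 0 and 23 counts in Chat negative libraries 1, 2 and 3 and 10, 0 and 9 in Chat positive libraries 1, 2 and 3. Ifi35 was the steadiest member, at 72.6 and 72.8 CPM in the libraries numbered 2 and from 65.2 to 81.4 in the other 4 (edgeR adjusted p = 0.111). Exons of Ifi35, Dhx58, Usp18, Irf1, Irf7 and Eif2ak2 overlap genes on the opposite strand, most of all Ifi35, with 16.8% of its exon bases in the antisense transcript Gm11626.

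Beside genes of like abundance, within 0.5 log2 units of the member's mean CPM, 34 of 35 tested members had a larger SD over libraries than the median gene. Of these, 18 exceeded 95% of such genes, and the median SD was 0.69 log2 units over the members and 0.26 over all genes tested. Isg15, Oas3 and Irf7 ranked 15, 18 and 23 in SD among the 8376 genes at 10 CPM or more, behind Rtp4 at 1, and Dhx58 and Xaf1 ranked 45 and 53.

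**Figure D3:**
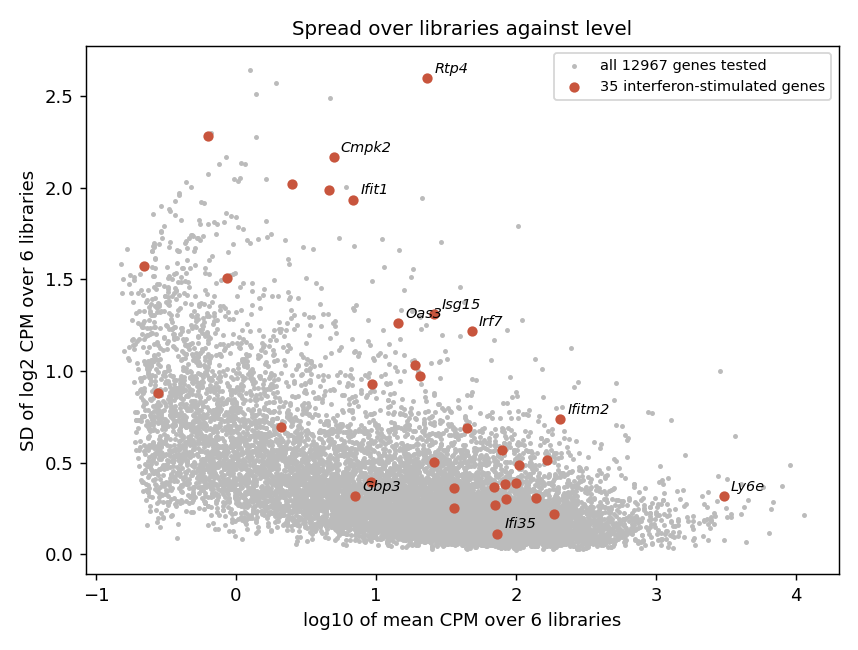
SD of log2 CPM over the 6 libraries (y) against the log10 of the mean CPM (x), with all 12967 genes tested in grey and the 35 tested members in red. Rtp4 lies at the top of its abundance range, and Ifi35 lies among the grey points.

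Between the gates, the comparison the sort was made for, no member passed. Without the block, edgeR called 0 of 35 members, against 0.00771% of all genes, which is Chat alone. None had an unadjusted p under 0.05, against 2.43% of all genes. DESeq2, which called 0.0308% of all genes, and limma-voom, both without the block, also called 0 members. For no member were the gates free of overlap, against 8.14% of all genes. The median log2 change, Chat positive minus Chat negative, was -0.10 over the members and 0.0044 over all genes, and 28 of 35 members lay below 0, or 80.0%, against 49.1% of all genes. Within numbers 1, 2 and 3 the median over members was -0.11, -0.0095 and -0.17. The pooled median turned to 0.11 without Chat negative 3 and 0.064 without Chat positive 2, and went to -0.44 without Chat negative 2, -0.47 without Chat positive 3 and -0.20 without Chat positive 1, since leaving out 1 library unbalances the numbers.

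Because libraries of the same number deviated together, the gates were also compared within numbers. With the number as a block, edgeR called 1 member, Ifitm2, and 0.339% of all genes (0.123% as lower). Ifitm2 was lower in Chat positive cells, with a log2 change of -0.45 (SE 0.060, edgeR adjusted p = 0.0420), with differences of -0.42, -0.36 and -0.57 in numbers 1, 2 and 3. Its adjusted p ranged from 3.80e-07 to 1.00 over all settings tried, and neither blocked limma-voom nor the blocked edgeR fit without robust dispersions called it. The blocked edgeR fit that called Ifitm2 has 2 residual degrees of freedom. Its gate term was not simulated, so how often such calls are false is unknown. Blocked DESeq2 called Ifitm2, Ddx58 and Parp14 among the members and 3.56% of all genes (2.12% as lower). Ddx58 stood at 157 ± 30.7 CPM over the Chat negative and 120.3 ± 15.5 CPM over the Chat positive libraries (n = 3 each), and was lower in Chat positive for 3 of 3 numbers. Its log2 change was -0.39 (SE 0.18) in edgeR without the block and -0.37 (SE 0.062, edgeR adjusted p = 0.0509) with it. Parp14 stood at 78.8 ± 21.2 and 60.4 ± 12.6 CPM, also lower for 3 of 3. Its change was -0.38 (SE 0.23) without the block and -0.37 (SE 0.082, edgeR adjusted p = 0.102) with it.

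In all, 11 of 35 tested members were lower in Chat positive for 3 of 3 numbers, or 31.4%, against 17.3% of all genes. 4 were lower for none of the 3, or 11.4%, against 22.3%, namely Ifi35, Herc6, Isg15 and Oas2, the last with 0 counts at number 2 in both gates. For Rtp4, Isg15, Irf7, Ly6e and Irf1 the gate means differed by less than the SD of either gate. Rtp4 stood at 25.6 ± 23.4 CPM over the Chat negative and 21.0 ± 18.1 CPM over the Chat positive libraries, a log2 change of -0.29 (SE 1.35). Isg15 stood at 24.8 ± 19.6 and 27.0 ± 19.9 CPM, changing by 0.12 (SE 0.83), and Irf7 at 47.7 ± 33.5 and 49.1 ± 31.4 CPM, changing by 0.041 (SE 0.76). Ly6e stood at 3214 ± 626 and 2878 ± 703 CPM, changing by -0.16 (SE 0.23), and Irf1 at 199 ± 28.1 and 176 ± 26.5 CPM, changing by -0.18 (SE 0.16). Log2 changes of the 35 members ran from -1.10 for Rsad2 to 0.27 for Oas2, both among the sparser members.

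For the other members too, the means of the gates differed by less than the larger SD of either gate. Irf9 averaged 80.5 ± 35.1 CPM over Chat negative and 77.8 ± 25.01 CPM over Chat positive libraries, and Stat2 103 ± 32.9 and 96.1 ± 21.1 CPM. Around Isg15, Trim30a averaged 45.2 ± 21.3 CPM over Chat negative and 43.8 ± 21.9 CPM over Chat positive libraries, Herc6 35.04 ± 9.31 and 37.2 ± 10.1 CPM and Usp18 4.77 ± 5.36 and 4.49 ± 4.76 CPM. Of the sensors, Zbp1 averaged 87.4 ± 22.4 CPM over Chat negative and 83.1 ± 15.3 CPM over Chat positive libraries, Eif2ak2 37.1 ± 4.43 and 34.6 ± 8.27 CPM and Ifih1 8.58 ± 3.08 and 9.71 ± 2.14 CPM. The synthetases were sparser, where Oas1a averaged 10.3 ± 5.65 CPM over Chat negative and 8.46 ± 4.73 CPM over Chat positive libraries, Oasl2 0.909 ± 0.655 and 0.815 ± 0.658 CPM and Oas2 0.567 ± 0.619 and 0.690 ± 0.683 CPM. Of the membrane proteins, Bst2 averaged 71.5 ± 14.4 CPM over Chat negative and 69.5 ± 13.4 CPM over Chat positive libraries, and of the nucleotide enzymes Cmpk2 averaged 6.0 ± 6.82 CPM over Chat negative and 3.96 ± 4.09 CPM over Chat positive libraries and Rsad2 3.41 ± 4.15 and 1.596 ± 1.67 CPM. Rsad2 had the lowest fitted change of the members and yet overlapped between the gates. Of the IFIT proteins, Ifit1 averaged 7.90 ± 8.73 CPM over Chat negative and 5.86 ± 5.47 CPM over Chat positive libraries, Ifit2 2.15 ± 0.177 and 2.04 ± 1.16 CPM and Ifit3 0.140 ± 0.139 and 0.180 ± 0.165 CPM. Of the GTPases, Gbp2 averaged 27.4 ± 10.7 CPM over Chat negative and 24.2 ± 7.25 CPM over Chat positive libraries, Gbp3 6.93 ± 2.16 and 7.29 ± 1.28 CPM and Mx1 0.349 ± 0.284 and 0.209 ± 0.137 CPM, and last Ifi35 averaged 71.8 ± 6.32 CPM over Chat negative and 74.7 ± 5.93 CPM over Chat positive libraries and Ifi44 0.280 ± 0.267 and 0.165 ± 0.144 CPM. Each of these pairs of gates overlapped in range.

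**Figure D4:**
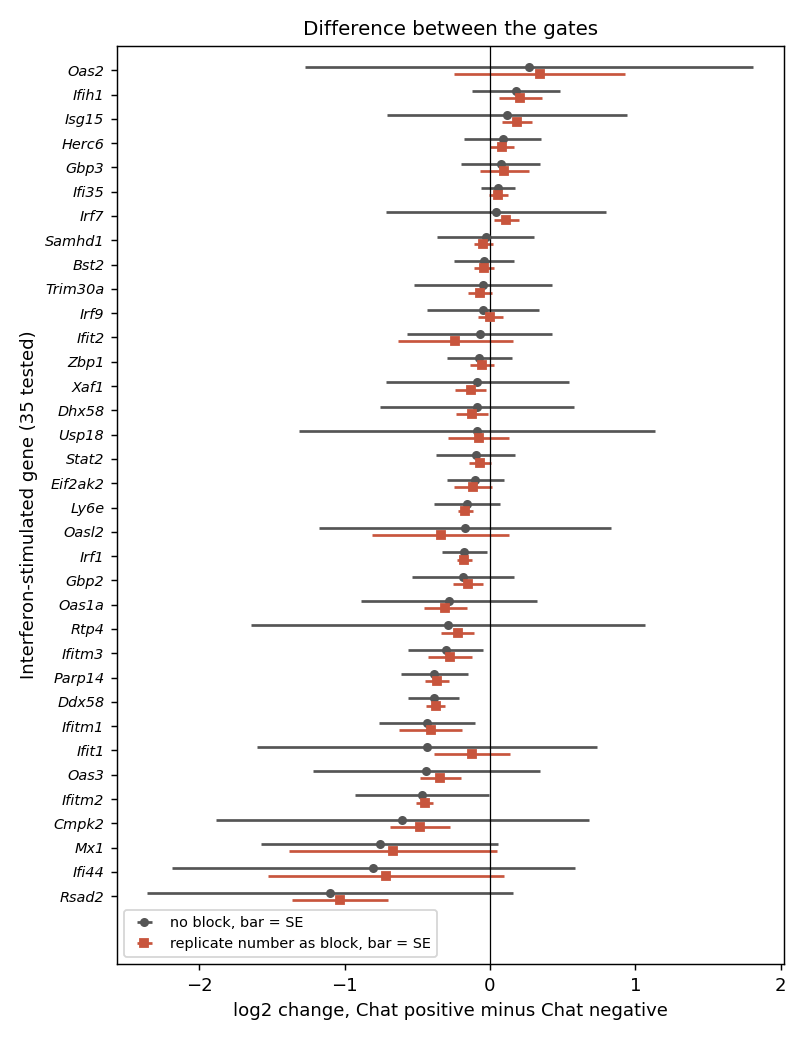
Log2 change between the gates (x, Chat positive minus Chat negative, bars are SE) for the 35 tested members, without the block (circles) and with the replicate number as a block (squares). Most estimates hardly move between the fits, that of Ifit1 more than others, while the bars of members such as Rtp4, Isg15 and Irf7 shrink with the block.

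The rest of the pathway was read from lists chosen for this work. Of 20 interferon genes, 19 had 0 counts in every library, among them Ifnb1 and all listed Ifna genes. The other one, Ifng, had at most 32 counts, in Chat positive 1, and 0 in both libraries numbered 2 and in Chat positive 3. A count of 0 allows up to 0.0807 CPM in the smallest library. The cells did carry receptor transcripts. Of 8 tested receptor and kinase genes, 3 differed between the numbers in edgeR, or 37.5%, a share near that of all genes (32.5%). They were Ifngr1, the ligand-binding chain for interferon gamma, at 99.7 and 103 CPM in the libraries numbered 2 and from 198 to 235 in the other 4, Ifnar2 at 51.8 and 48.0 against 62.6 to 73.6 CPM and Ifngr2 at 47.7 and 47.4 against 58.5 to 63.5 CPM. Ifnar1, at 92.7 and 107 against 90.7 to 108 CPM, and the kinases did not pass, with Jak1 at 1323 and 1221 against 1042 to 1232, Tyk2 at 142 and 150.4 against 139.7 to 155 and Jak2 at 251 and 183 against 199.7 to 316 CPM. Ifnlr1, the receptor for type III interferons, had 0 counts in all 6 libraries.

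Among further transcription factors, Irf8, of the interferon gamma response, was low at number 2, at 21.3 and 18.0 against 31.2 to 36.3 CPM. Irf4, which is induced by lymphocyte activation, lay the other way, at 78.8 and 77.2 CPM in the libraries numbered 2 and from 32.1 to 45.6 in the other 4. Stat3, at 707 and 701 against 649 to 751 CPM, and Irf2, a repressor of Irf1 targets, at 40.8 and 39.1 against 43.5 to 50.2 CPM, did not pass. Among 8 tested negative regulators, 3 differed between the numbers, or 37.5%, again near the share of all genes, namely Socs3, Ptpn1 and Ptpn2. The phosphatases Ptpn1, at 177 and 155 against 129.9 to 162 CPM, and Ptpn2, at 139 and 165 against 139 to 190.2 CPM, overlapped between number 2 and the others. Socs3, a feedback inhibitor of cytokine receptors, stood at 493 and 467 against 594 to 688 CPM, and Socs1, the feedback inhibitor of interferon gamma signals, did not pass, at 536 and 526 against 463 to 522 CPM. Of 11 further sensors and adaptors, 3 differed, or 27.3%. Trim25, the RIG-I ligase, was low at number 2, at 33.7 and 39.7 against 58.8 to 104 CPM, while Tlr7, at 5.72 and 4.49 against 1.02 to 2.72, and Myd88, at 184 and 188 against 145 to 158, were high there. Sting1, the adaptor of cytosolic DNA sensing, and Tbk1, the kinase that acts on Irf3, did not pass, at 204 and 186 against 194 to 228 and 164 and 186 against 165 to 188 CPM.

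A further list of 51 interferon-stimulated genes outside the 36 gave a like picture. Of 43 tested, 32 differed between the numbers in edgeR, or 74.4%, against 32.5% of all genes. Number 2 held both lowest libraries for 36 of the 43, against 23.4% of all genes. The median log2 difference of number 2 from the others was -0.61, beside -1.07 for the 35 members and 0.0012 for all genes. The abundant members of this list were Lgals9, a galectin, at 339 and 318 against 314 to 329.6 CPM, Gbp4 at 299 and 356 against 241 to 334, Sp100, of nuclear bodies, at 194 and 193 against 218 to 233 and Slfn2, which supports lymphocyte quiescence, at 109 and 115 against 219 to 254. Slfn2 and Sp100 were lowest at number 2, Gbp4 was not, and Lgals9 did not pass. In antigen presentation 6 of 10 genes differed, or 60.0%, with a median difference of -0.23: B2m, the light chain of class I, stood at 3389 and 3315 against 4362 to 5126 CPM, Psmb8 at 618 and 584 against 686 to 716, Tapbp at 433 and 385 against 482 to 625 and Tap1 at 270.3 and 248 against 269 to 331. None of the genes in these lists passed between the gates, with or without the block, in edgeR.

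**Figure D5:**
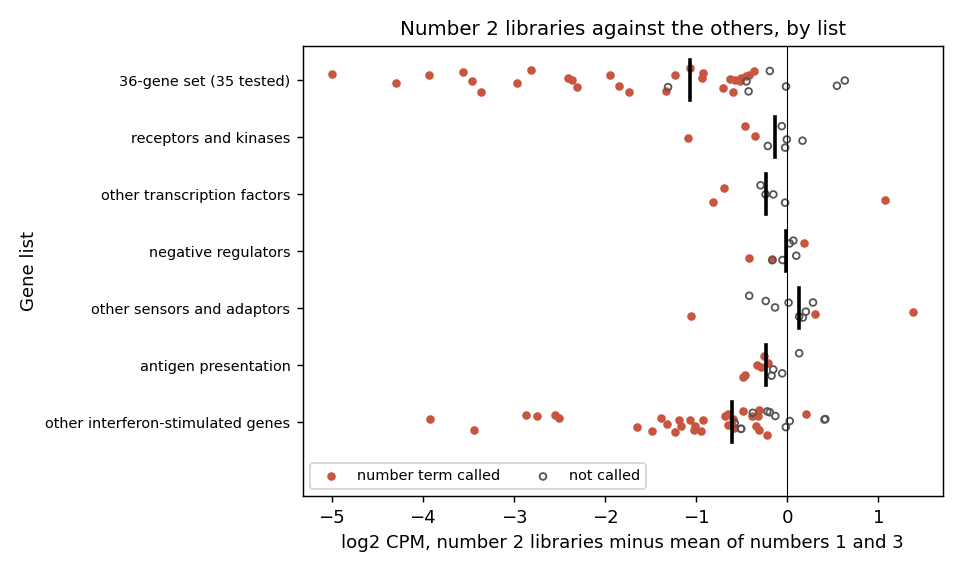
Log2 difference of the number 2 libraries from the mean of numbers 1 and 3 (x) for each tested gene of 7 lists (rows), with filled points where the number term passed in edgeR and a bar at each list's median. The 35 members and the further interferon-stimulated genes extend far to the left, and the medians of the receptor, regulator and adaptor lists lie between -0.14 and 0.13.

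Some markers of other cell types moved with the number, in either direction. The 9 monocyte and macrophage markers summed to 7.98 and 8.51 CPM at number 2 and 20.04 to 24.4 in the other libraries, most of it Cd68, at 6.99 and 6.85 against 19.0 to 21.3 CPM, while the defining genes Lyz2 and Csf1r had at most 5 counts in a library. The 7 dendritic cell markers summed to 259 and 260.2 CPM at number 2 and 487 to 509.9 in the other libraries. Of these the class II gene H2-Ab1 stood at 100.03 and 100.5 against 318 to 359 CPM. Cd74, the class II invariant chain, was high at number 2, at 28.3 and 27.8 against 14.1 to 25.4 CPM. The log2 difference of number 2 from the others was -0.073 (SE 0.062) for Xcr1 and -0.73 (SE 0.63) for Zbtb46. Flt3 had at most 1 count and Clec9a 0. Siglech, which marks plasmacytoid dendritic cells, the main source of type I interferon, had 0 counts in all 6 libraries. The 5 listed markers of these cells nonetheless summed to 14.8 and 18.2 CPM at number 2 and 17.8 to 22.7 in the other libraries. For the 2 tested ones the log2 difference of number 2 from the others was -0.35 (SE 0.15, Tcf4) and 1.34 (SE 0.91, Ccr9). Of the 6 B cell markers, Ms4a1 had at most 1 count, but Ighm and Cd79b were expressed. Ighm was highest at number 2, at 360 and 293 against 203 to 274 CPM. Cd79b was lowest there, at 66.1 and 68.5 against 71.6 to 85.4 CPM. Klrb1c and Ncr1 of NK cells had at most 5 counts. By gate, the 8 T cell markers summed to 39.3 to 54.0 CPM over the Chat negative and 44.4 to 56.0 CPM over the Chat positive libraries. Neutrophil markers summed to 2.86 and 2.33 CPM at number 2 and 7.37 to 15.3 in the other libraries, with Ly6g at 0.853 and 1.24 against 5.70 to 12.6 and S100a8 at most 0.440 CPM. Epithelial cell markers summed to 37.3 and 34.4 CPM at number 2 and 54.4 to 89.6 in the other libraries, most of it Epcam. In these lists Mpo and Krt18 leaned the other way, with log2 differences of number 2 from the others of 0.54 (SE 0.48) and 0.68 (SE 0.32). Cxcr2 and Cdh1 were low there, at -1.85 (SE 0.61) and -1.74 (SE 0.43). The basophil protease Mcpt8 stood at 30.8 and 24.9 against 124 to 203 CPM, while Kit, of the same list, was high at number 2, at 247 and 276 against 153 to 194 CPM, and Cpa3, Mcpt4 and Tpsb2 of mast cells had 0 counts. The 7 markers of that list summed to 278 and 301 CPM at number 2 and 303 to 356 in the other libraries. Both libraries numbered 2 were the lowest for 2 of 3 tested monocyte and macrophage markers, 2 of 4 dendritic cell, 2 of 3 neutrophil, 2 of 3 epithelial cell, 1 of 5 T cell and 3 of 10 ILC2 markers, beside 23.4% of all genes. They were the highest for 2 T cell markers, among them Cd28 at 22.4 and 28.8 against 4.56 to 10.8 CPM, for 1 dendritic cell, 1 B cell, 1 mast cell or basophil and 1 ILC2 marker, and for 0 of the monocyte and macrophage, neutrophil and epithelial cell markers, beside 26.3% of all genes. Among ILC2 genes, Il7r was lower at number 2, at 797 and 732 against 1153 to 1497 CPM, and Il2ra higher, at 5775 and 5753 against 3618 to 4134. The part of these shifts in the levels of the members was not tested.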

How the data were processed

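Libraries of 6 sorted ILC2 samples were made with a low-input SMARTer kit, per the labels' protocols. Reads were handled with CASAVA 1.8.2 and STAR 2.3.0 on mm10, per the submitters' processing notes. With the counting program and its strand setting not given in the sources used here, reads of overlapping genes cannot be told apart by strand. The deposited values are raw counts per Entrez ID, with no normalisation, since all are whole and each column has its own sum. Symbols came from RefSeq GRCm38.p6 for 25275 of 27179 IDs, transcript lengths, exon overlaps and shared 50-base words from GENCODE vM21. Libraries of a gate all differed beyond sampling noise, with a chi-square of 31.5 or more per degree of freedom.

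Genes passed filterByExpr, libraries were scaled by TMM, and edgeR 4.0.16 (R 4.3.3, robust quasi-likelihood test, two-sided, Benjamini-Hochberg over all genes tested, threshold 5%) compared the gates without a block. SEs are those the F statistic implies. Log2 CPM used a prior count of 2. The shared replicate numbers were used as pairs by the rule that every same-number correlation exceed 0.1. This rule cannot tell pairs from other matches of numbers 1 and 3. Chat negative 1 with Chat positive 3 (0.301) and Chat negative 3 with Chat positive 1 (0.197) exceeded it too. Deviations were taken from the gate mean, so a shift of number 2 shared by both gates by itself makes numbers 1 and 3 alike. The pairing is not stated in the labels. The blocked fits, which also give the number term, have 2 residual degrees of freedom. On simulated data, false calls made up more of the calls of edgeR's number term than the threshold allows. The gate term of a blocked fit was not simulated. limma 3.58.1 and DESeq2 1.42.0 were alternatives.

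The members and lists were chosen with earlier results of these data known, and the number term was added after the data were seen. Values in every library are given for the 6 most abundant members, the 6 with the smallest p between the gates, the 6 of at least 10 CPM with the largest SD, and any member called with or without the block. Of each pathway list, the 4 most abundant genes are named, save an item that is not reported here, and others named were chosen after their values were seen.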

Additional observations from a re-analysis of the deposited data

How the results depend on the processing

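Between the gates, 0 members were called under RLE, upper-quartile and library-size scaling, either filter, DESeq2 and limma-voom without the block, and without any library or any number. The replicate block gave 1 member and 44 genes, the block with a length and GC correction 1 and 4, and DESeq2 with the replicate block 3 and 461. In these 3 blocked fits Ifitm2 had a log2 change of -0.45, -0.56 and -0.46. The block changed no other call among the members in edgeR. Over all genes, DESeq2 without the block called 4, the fit without number 2 2, those without number 1 or 3 0 each, and fits without 1 library 0 to 1, the Chat call being lost without library 1 or 3 of either gate. Without 1 library the members' median log2 change ran from -0.47 to 0.11, and these members changed sign: Ly6e -0.32 to 0.021, Samhd1 -0.26 to 0.24, Rtp4 -0.96 to 0.52, Isg15 -0.57 to 0.86, Oas3 -0.98 to 0.051, Irf7 -0.43 to 0.59, Dhx58 -0.64 to 0.34, Xaf1 -0.54 to 0.33. None of these values passed. Each of those fits leaves a number with 1 library in 1 gate only, and all other settings kept the direction of the 14 members followed.

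For the number term, 23 to 31 members were called without 1 library, the fewest without Chat negative 2, and 1368 to 5173 genes, again fewest without Chat negative 2 and most without Chat positive 3. Without the gate term it called 24 members and 2716 genes. Of the 28 members called, 20 were called in every alternative that tested them. Members under 1 CPM, such as Ifi44, Mx1 and Oas2, rest on few counts, which limits what can be said of them.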
